A study of Drosophila melanogaster with 12 samples.

Results

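The c-Jun N-terminal kinase (JNK) pathway and wound response were followed through 10 genes of sorted Drosophila melanogaster midgut progenitors: egr, hep, bsk, Jra, kay, puc, Mmp1, Mmp2, Ets21C and Gadd45. They were listed by name, with earlier results of these data known but no measured value in the rule, and all 10 were found by FlyBase identifier among the 17617 genes of the deposited files. JNK signalling is a stress-activated kinase cascade. The tumour necrosis factor ligand Eiger (egr) binds surface receptors, adaptors and upstream kinases pass the signal to the kinase Hemipterous (hep), and Hemipterous activates the Drosophila JNK, Basket (bsk). Basket acts on the AP-1 transcription factors Jra (Jun) and kay (Fos), whose targets include puc, a phosphatase that shuts Basket off, and Mmp1, a secreted matrix metalloproteinase of wound closure and tissue remodelling. In the fly gut, JNK activity is known to follow epithelial stress and to promote stem cell division.

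RNA came from green fluorescent progenitors of mated adult females, sorted from intestines and sequenced from transcript 3′ ends. Control flies were esgtsGFP (x) w1118, the driver line crossed to a stock with no hairpin, and knockdown flies were esgtsGFP (x) UAS-trxRNAi (BDSC#33703), a hairpin against the histone methyltransferase gene trithorax (trx). All groups carried the esgtsGFP driver, which is active in stem cells and enteroblasts, were 3 to 4 days old at the shift to 29 °C, and stayed there for 7 days. For the last 48 h they received 5% sucrose or 3% DSS, dextran sulfate sodium, which injures the intestinal epithelium, which gave 4 groups of 3 libraries. Whether the 3 libraries of a group were made from different flies was not stated, and p-values therefore cover the spread among these libraries, which may be technical.

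Values below are the authors' scaled read counts, in whole numbers, which allow a gene to be compared between libraries but not 1 gene with another. Value totals ranged from 5362337 to 6520981 per library. A gene was tested where 3 or more libraries reached a value of 10, which 8399 genes did, among them 9 of the 10 members but not Mmp2. Each difference is given on the log2 scale after adding 2 to the value, with its standard error (SE) and a p from limma adjusted by Benjamini and Hochberg's method over the 8399 genes. A gene passed below an adjusted p of 0.05. In bulk RNA such as this, fewer cells of a type and less RNA per cell cannot be told apart. The RNAi target trx had 1114, 1217 and 1313 in sucrose-fed controls, 668, 667 and 448 in sucrose-fed trxRNAi, 841, 1041 and 652 in DSS-fed controls, and 715, 758 and 808 in DSS-fed trxRNAi. It fell by 1.05 ± 0.19 (SE) under sucrose (adjusted p = 0.00356), while under DSS the difference was -0.13 ± 0.19 (adjusted p = 0.772). The target by itself thus did not bear out the genotype labels of the DSS libraries. The sum of 12 enteroendocrine markers did not overlap between the DSS groups, at 0.365 to 0.509% in controls and 0.0401 to 0.0661% in trxRNAi. Whether the genotype and feed labels hold was not tested, and groups are named as labelled. Progenitor markers were present: the 10 markers together took 0.205 to 0.456% of a library, with values from 568 to 2156 for the Notch ligand gene Delta. By group the progenitor sum was 0.301 to 0.334% in sucrose-fed controls, 0.330 to 0.456% in DSS-fed controls, 0.278 to 0.396% in sucrose-fed trxRNAi and 0.205 to 0.273% in DSS-fed trxRNAi, so under DSS it was lower in trxRNAi without overlap. The 11 enterocyte markers took 0.0507 to 0.175%, 0.0628 to 0.175%, 0.0539 to 0.0927% and 0.0520 to 0.0654% in the same order. The largest part of the progenitor sum was heca, at 9976 to 14638 in DSS-fed controls and 5318 to 7832 in DSS-fed trxRNAi. Under DSS the means of klu, Sox100B and E(spl)mbeta-HLH were higher in trxRNAi, at 1191 against 1140, 451 against 437 and 3291 against 3080. Those of the other progenitor markers were lower. Visceral muscle, tracheal, and fat body and ovary markers each took at most 0.00232% in sum.

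Mmp1 passed in every one of the 4 comparisons and moved in opposite directions with genotype under the 2 feeds. Its call for DSS against sucrose in trxRNAi was less firm, passing in 5 of 12 fits that each left out 1 library. Mmp1 was lower in trxRNAi than in control under sucrose and higher in trxRNAi than in control under DSS. Gadd45, a stress-response gene known to feed into MAP kinase signalling, was higher in trxRNAi under DSS. The other 7 tested members, which are the core of the pathway from ligand to AP-1 factors, puc and Ets21C, did not pass in any of the 4 comparisons of genotype or feed, or in the interaction. Of 9 tested members, 1 passed for genotype under sucrose, where 4.68% of all tested genes passed, and 2 passed for genotype under DSS, where 9.44% passed. Exactly 1 passed for DSS against sucrose in control (3.08% of all genes), 1 for DSS against sucrose in trxRNAi (3.55%) and 1 for the interaction of genotype and feed (8.86%). Counts of 1 or 2 in 9 do not set the members apart from that background. Median differences of the 9 members were 0.06, 0.03, -0.08 and -0.02 in the 4 comparisons and 0.16 in the interaction, against 0.01, -0.01, 0.02, 0.00 and -0.01 over all tested genes. These comparisons share libraries, so a member that is far off in 1 group weighs on several of them.

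**Figure D1:**
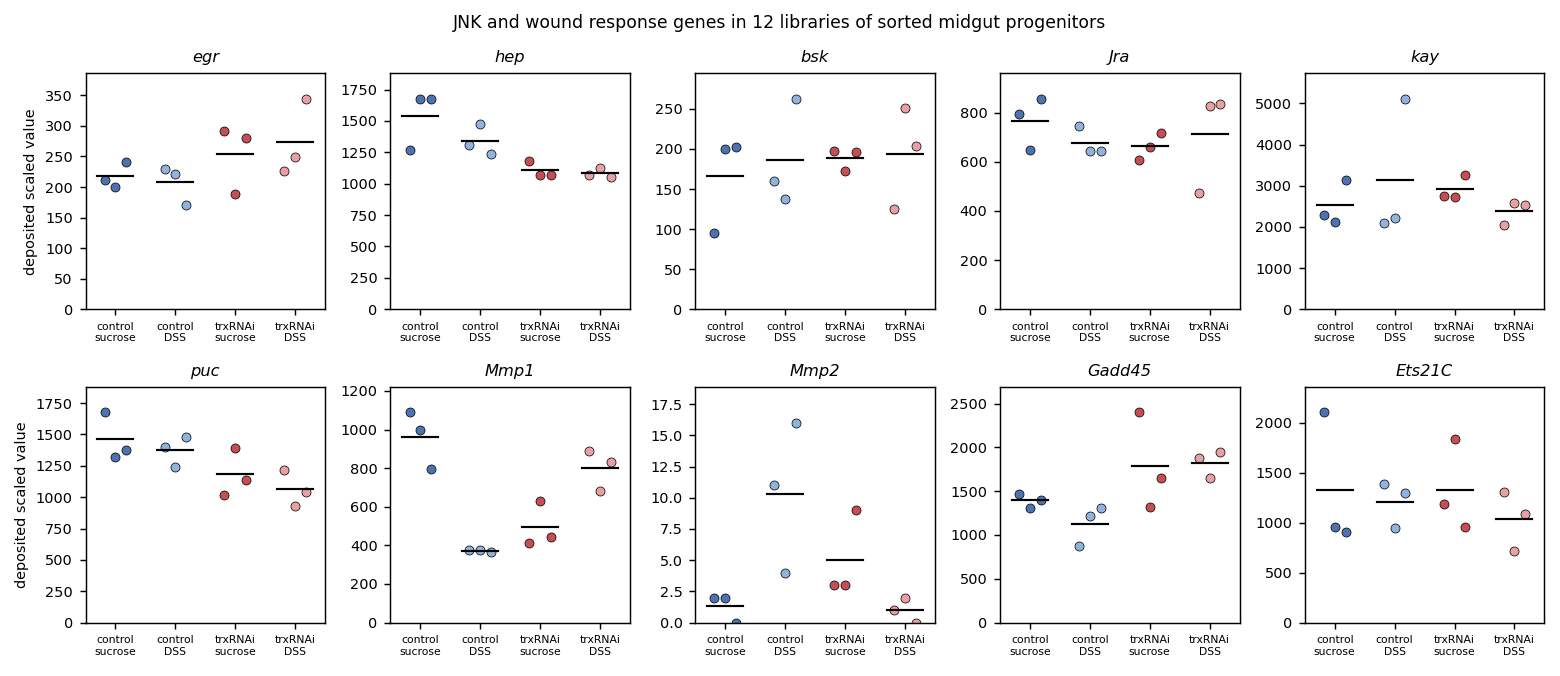
Deposited scaled value (y axis, from 0, own scale per panel) of each of the 10 genes in each library, by group on the x axis. Points are the 3 libraries of a group, and bars are their means. Mmp1 is high in control sucrose and trxRNAi DSS and low in the other groups, and 1 control DSS library of kay, at 5118, lies above all other libraries.

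The ligand gene egr (FBgn0033483, chromosome 2R, 10078366 to 10084210 in dm6, plus strand) had 211, 200 and 241 in sucrose-fed controls and 230, 222 and 171 in DSS-fed controls. In trxRNAi libraries it had 291, 189 and 280 under sucrose and 226, 249 and 344 under DSS. The groups overlapped in each of the 4 comparisons, and the largest difference, 0.38 ± 0.21 for genotype under DSS, did not pass (adjusted p = 0.32). The 95% interval of that difference reached from -0.07 to 0.83. Transcripts of the Eiger receptors were barely detected. The receptor gene grnd had a value of at most 4 and wgn of at most 11 in any library, and neither passed the filter.

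The gene hep, for the kinase that activates JNK, (FBgn0010303, chromosome X, 13079205 to 13090434, minus strand) had 1266, 1676 and 1678 in sucrose-fed controls and 1310, 1475 and 1235 in DSS-fed controls. It had 1178, 1071 and 1071 in sucrose-fed trxRNAi and 1071, 1126 and 1054 in DSS-fed trxRNAi. The 6 control libraries all lay above the 6 trxRNAi libraries, so the genotypes did not overlap under either feed. The difference was -0.47 ± 0.15 under sucrose (adjusted p = 0.0917) and -0.30 ± 0.15 under DSS (adjusted p = 0.253), and neither passed. Averaged over both feeds, a contrast added after these values were seen, it was -0.38 ± 0.11 with an interval from -0.61 to -0.16 (adjusted p = 0.0553). Among all tested genes, 1.24% were lower in all 6 trxRNAi libraries than in all 6 controls, and 3.75% passed that averaged contrast. No member passed it in limma, while 3 members (puc, hep and Gadd45), and 18.5% of all tested genes, had an unadjusted p under 0.05. Leaving out control sucrose replicate 1 brought hep past the threshold under sucrose, at -0.60 (adjusted p = 0.0378), as did leaving out control DSS replicate 3, which is in neither group (adjusted p = 0.0495). Without those libraries the averaged contrast had adjusted p = 0.0280 and 0.0217, and after rescaling to equal totals 0.0429.

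The JNK gene bsk (FBgn0000229, chromosome 2L, 10247502 to 10250501, minus strand) had 95, 200 and 202 in sucrose-fed controls, 160, 138 and 262 in DSS-fed controls, 197, 172 and 196 in sucrose-fed trxRNAi, and 125, 251 and 204 in DSS-fed trxRNAi. Every group overlapped every other. Libraries of 1 group differed up to 2.13-fold, in sucrose-fed controls, and differences between groups ran from -0.02 to 0.26 with SE 0.32. None passed, and with 95% intervals that together spanned -0.69 to 0.94, smaller differences were not detectable with this spread.

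Of the AP-1 genes, Jra (FBgn0001291, chromosome 2R, 10096480 to 10098556, plus strand) had 795, 650 and 857 in sucrose-fed controls and 744, 643 and 646 in DSS-fed controls. It had 609, 660 and 719 in sucrose-fed trxRNAi and 472, 829 and 837 in DSS-fed trxRNAi, the group with the widest spread. Its differences in the 4 comparisons ran from -0.20 to 0.06, and none passed. Its last 39 bases overlap RpLP0-like on the opposite strand, which had values of 282 to 519. Whether reads were counted by strand was not stated, so reads from that stretch may not be told apart. The partner gene kay (FBgn0001297, chromosome 3R, 29765995 to 29794113, plus strand) had 2285, 2129 and 3151 in sucrose-fed controls and 2105, 2222 and 5118 in DSS-fed controls. It had 2754, 2722 and 3269 in sucrose-fed trxRNAi and 2043, 2584 and 2532 in DSS-fed trxRNAi. Control DSS replicate 3, at 5118, stood above every other library. The difference of DSS from sucrose in control was 0.21 ± 0.28 with it and -0.20 without it, and that of genotype under DSS was -0.28 ± 0.28 with it and 0.13 without it. None of these passed. The 3 trxRNAi DSS libraries lay below the 3 trxRNAi sucrose libraries, with a difference of -0.29 ± 0.28 (adjusted p = 0.792).

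The feedback phosphatase gene puc (FBgn0243512, chromosome 3R, 8105332 to 8122294, plus strand), whose transcript is a standard readout of JNK activity in flies, had 1680, 1323 and 1379 in sucrose-fed controls and 1401, 1240 and 1481 in DSS-fed controls. It had 1020, 1393 and 1137 in sucrose-fed trxRNAi and 1213, 926 and 1045 in DSS-fed trxRNAi. DSS and sucrose libraries overlapped in both genotypes, with differences of -0.08 ± 0.17 in control (95% interval -0.43 to 0.27) and -0.15 ± 0.17 in trxRNAi (-0.50 to 0.20). Under DSS the 3 trxRNAi libraries lay below the 3 controls, with a difference of -0.38 ± 0.17 (adjusted p = 0.184). Under sucrose the groups overlapped (-0.31 ± 0.17, adjusted p = 0.349).

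**Figure D2:**
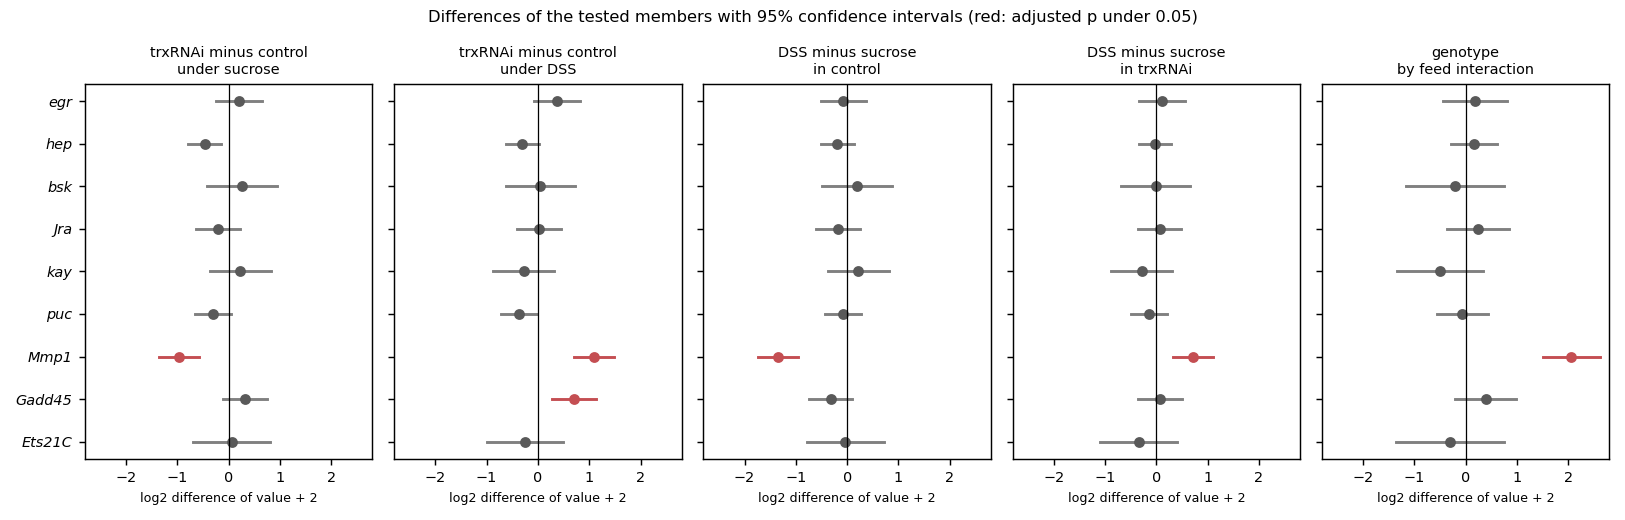
Log2 difference of value plus 2 (x axis) for the 9 tested genes (rows) in 4 comparisons and the interaction (panels). Points are estimates, lines are 95% confidence intervals, and red marks an adjusted p under 0.05. Mmp1 is red in every panel, Gadd45 only for genotype under DSS, and the intervals of bsk and Ets21C are the widest.

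The metalloproteinase gene Mmp1 (FBgn0035049, chromosome 2R, 24671294 to 24688184, minus strand, with 10 annotated transcripts and 2 annotated 3′ ends) had 1091, 997 and 796 in sucrose-fed controls. It had 376, 376 and 364 in DSS-fed controls, 412, 630 and 443 in sucrose-fed trxRNAi, and 889, 681 and 832 in DSS-fed trxRNAi. Control sucrose was thus highest and overlapped trxRNAi DSS, while trxRNAi sucrose lay above control DSS without overlap, and the higher pair of groups did not overlap the lower pair. With means of 961 ± 151 (SD, n = 3) in sucrose-fed controls and 495 ± 118 in sucrose-fed trxRNAi, Mmp1 fell by 0.97 ± 0.18 (SE) with genotype under sucrose (1.96-fold, adjusted p = 0.00502). Under DSS it went from 372 ± 6.93 to 801 ± 107, a rise of 1.09 ± 0.18 or 2.13-fold (adjusted p = 0.000907). In control flies, DSS libraries were lower than sucrose libraries by 2.55-fold, a difference of -1.35 ± 0.18 (adjusted p = 0.000367), which ranked 26 by p among the 8399 genes. In trxRNAi flies, DSS libraries were higher by 0.71 ± 0.18, or 1.63-fold (adjusted p = 0.0409).

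The genotype effect on Mmp1 differed between feeds by 2.06 ± 0.26, with a 95% interval from 1.51 to 2.61 (adjusted p = 5.42e-05). The interaction and the first 3 comparisons passed without any 1 of the 12 libraries, with adjusted p of at most 0.0403. The rise with DSS in trxRNAi was less firm: it passed in 5 of those 12 fits. It missed the threshold without control sucrose replicate 2 or control DSS replicate 1 (adjusted p = 0.0524 and 0.0601), trxRNAi sucrose replicate 1 or 3 (0.233 and 0.175) or trxRNAi DSS replicate 1, 2 or 3 (0.158, 0.0518 and 0.153). The same held after rescaling to equal totals (0.63, adjusted p = 0.0711) and with no filter on low values (adjusted p = 0.0605). The neighbouring gene Pof, whose last bases overlap Mmp1 by 284 bases on the opposite strand, had values of 7 to 26.

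Hemocytes are also known to express Mmp1, and the sum of 9 hemocyte markers was high and low in the same groups. They took 0.0146 to 0.0187% of the total in sucrose-fed controls and 0.0188 to 0.0215% in DSS-fed trxRNAi, against 0.0100 to 0.0117% in DSS-fed controls and 0.0107 to 0.0114% in sucrose-fed trxRNAi. That sum was almost wholly the scavenger receptor gene crq, at 504 to 1258. Each of the other 8 had at most 38. The highest of the 8, Sr-CI and Col4a1, had higher means in the groups with low Mmp1, with overlap. In sucrose-fed controls, DSS-fed controls, sucrose-fed trxRNAi and DSS-fed trxRNAi, Sr-CI had means of 16, 23.3, 23.3 and 7.67. Col4a1 had 10, 12.7, 26 and 9 in that order. The defining markers Hml, NimC1, Pxn, He and eater had under 10 in every library, with He and eater at 0 in all 12. Enteroendocrine markers took 0.300 to 0.468% in sucrose-fed controls, 0.365 to 0.509% in DSS-fed controls, 0.0892 to 0.132% in sucrose-fed trxRNAi and 0.0401 to 0.0661% in DSS-fed trxRNAi. This sum is mostly NPF, IA-2, Orcokinin and AstC, and single markers took other patterns, given here after their values were seen.

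Of the 12 enteroendocrine markers, 2 were lower in all libraries of the groups with high Mmp1 than in all libraries of the other groups. The fate factor gene pros had means of 403 ± 104 (SD, n = 3) in sucrose-fed controls, 1105 ± 684 in DSS-fed controls, 1043 ± 202 in sucrose-fed trxRNAi and 101.3 ± 6.43 in DSS-fed trxRNAi. The peptide hormone gene CCHa2 had 165 ± 20.6, 2010 ± 2071, 1181 ± 675 and 70.3 ± 13.9 in that order. Of the 10 progenitor markers, spdo did the same, at 13 to 39, 76 to 123, 128 to 146 and 20 to 33. Delta, at 568 to 1705, 1849 to 2031, 1242 to 2156 and 629 to 934, had higher means in the groups with low Mmp1 but overlapped between the groups. So did mira, at 355 to 694, 652 to 1557, 531 to 980 and 237 to 251, and the means of N went the same way. By contrast, klu and Sox100B had higher means in the groups with high Mmp1. These were 1492, 1140, 1039 and 1191 for klu, and 509, 437, 399 and 451 for Sox100B. Means of Sox21a, zfh2, heca and E(spl)mbeta-HLH took neither order. Of the 11 enterocyte markers, exex had the pattern of Mmp1, at 142 to 205, 33 to 39, 28 to 55 and 76 to 195. The share of all tested genes with such a split was not counted, so these counts are not read against a background. The part of any of these markers in the Mmp1 and Gadd45 results was not tested.

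**Figure D3:**
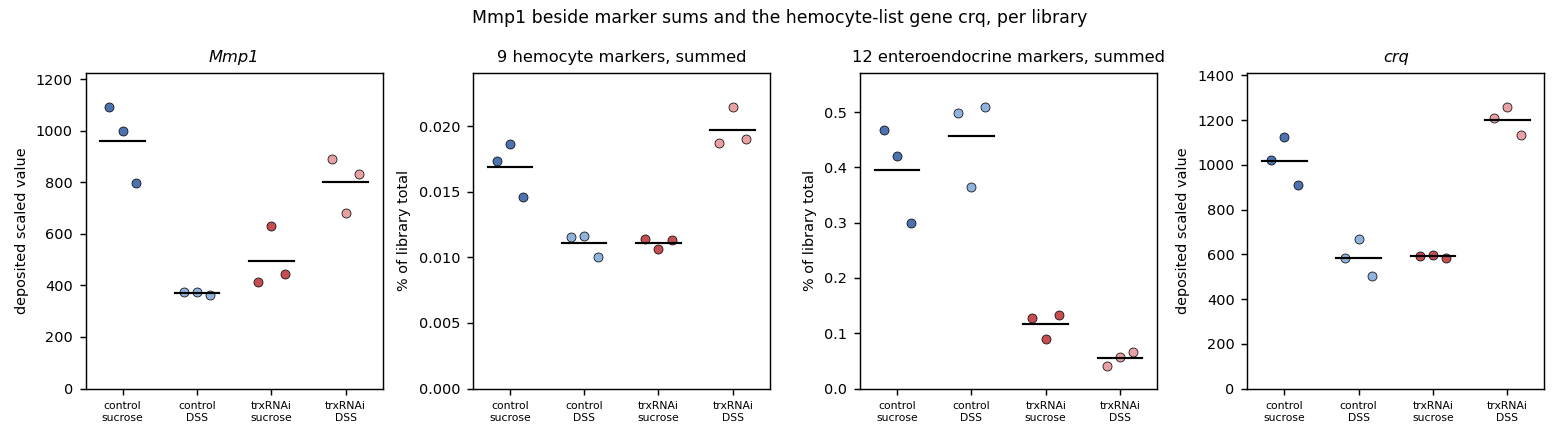
Mmp1 and crq as deposited scaled values, and the summed hemocyte and enteroendocrine markers as percent of the library total, per library and group. All y axes start at 0, points are libraries and bars are means. The hemocyte sum, almost wholly crq, and crq itself are high in the same 2 groups as Mmp1. The enteroendocrine sum is low in both trxRNAi groups.

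The 3 tested genes whose log2 values had the highest Pearson correlation with Mmp1 over the 12 libraries were mRpS29, a mitochondrial ribosomal protein gene (r = 0.953), and the less studied genes CG43646 (r = 0.923) and CG10184 (r = 0.912). They are given as a description, since they were picked from all tested genes for that value and the libraries fall into groups. CG43646 had a mean of 48.0 ± 10.4 (SD, n = 3) in sucrose-fed controls, 4.33 ± 1.53 in DSS-fed controls, 17.0 ± 3.00 in sucrose-fed trxRNAi and 45.3 ± 16.9 in DSS-fed trxRNAi. CG10184 had 421 ± 34.1, 169 ± 28.01, 232 ± 16.5 and 519 ± 69.4 in the same order.

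The second fly metalloproteinase gene, Mmp2 (FBgn0033438, chromosome 2R, 9611139 to 9683858, minus strand), was near the lower end of detection. It had 2, 2 and 0 in sucrose-fed controls, 11, 4 and 16 in DSS-fed controls, 3, 3 and 9 in sucrose-fed trxRNAi, and 1, 2 and 0 in DSS-fed trxRNAi. Control DSS lay above control sucrose and trxRNAi DSS without overlap, which is the reverse of Mmp1, for which control DSS was lowest. Without the filter, when 13707 genes were tested, the interaction for Mmp2 was -2.99 ± 0.80 (adjusted p = 0.0355) and no single comparison passed. The 4479 bases that it shares with the antisense gene asRNA:CR44069, itself at 0 to 8, make values this low uncertain. The gene of the shared inhibitor, Timp, was tested and did not pass in any of the 5 comparisons, with differences of -0.28 to 0.24.

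The ETS transcription factor gene Ets21C (FBgn0005660, chromosome 2L, 544925 to 552923, minus strand), which is known to be induced in progenitors by stress through JNK, had 2110, 962 and 903 in sucrose-fed controls and 1389, 952 and 1295 in DSS-fed controls. It had 1191, 1835 and 955 in sucrose-fed trxRNAi and 1303, 719 and 1088 in DSS-fed trxRNAi. Every group overlapped every other, and spread within groups was wide, 2.34-fold in sucrose-fed controls and 1.92-fold in sucrose-fed trxRNAi. The largest difference, -0.34 ± 0.34 for DSS in trxRNAi, did not pass (adjusted p = 0.809). DSS against sucrose in control was -0.03 ± 0.34 with control sucrose replicate 1 and 0.36 without it (adjusted p = 0.613).

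Gadd45 (FBgn0033153, chromosome 2R, 7249161 to 7250655, plus strand) had 1472, 1309 and 1402 in sucrose-fed controls and 870, 1216 and 1306 in DSS-fed controls. It had 2406, 1321 and 1649 in sucrose-fed trxRNAi and 1876, 1648 and 1949 in DSS-fed trxRNAi. Under DSS the genotypes did not overlap and Gadd45 rose by 0.71 ± 0.20 or 1.63-fold (adjusted p = 0.0332). That call ended without control DSS replicate 1 (0.53, adjusted p = 0.167) or without any 1 of trxRNAi DSS replicates 1, 2 and 3 (adjusted p = 0.0943, 0.0579 and 0.122), and after rescaling to equal totals (0.58, adjusted p = 0.0869). Under sucrose the genotypes overlapped, and the difference was 0.32 ± 0.20 (adjusted p = 0.443). The interaction was 0.39 ± 0.28 (adjusted p = 0.503), so the genotype effect was not shown to differ between feeds. Averaged over feeds the difference was 0.51 ± 0.14 (adjusted p = 0.0544), or adjusted p = 0.0455 with the replicate number as a block, 0.0198 without control DSS replicate 3 and 0.0279 without trxRNAi sucrose replicate 2. DSS libraries of control flies lay below sucrose libraries without overlap, at -0.32 ± 0.20 (adjusted p = 0.524).

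Counting groups without overlap, 2 of 9 tested members (Mmp1 and hep) separated the genotypes under sucrose, where 23.4% of all tested genes did. Under DSS 4 of 9 did (Mmp1, Gadd45, puc and hep), against 25.5% of all genes. Feed separated 2 of 9 in control (Mmp1 and Gadd45, against 16.1%) and 2 of 9 in trxRNAi (Mmp1 and kay, against 21.1%). In control, Gadd45 was separated only by 1306 against 1309.

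Further genes of the pathway were read from 4 lists of 43 genes. These were 6 tested receptors and adaptors, 9 upstream kinases, 7 stress and wound transcription factors and 10 reported targets and wound response genes. For genotype under sucrose, ImpL2 was higher and Thor was lower. Under DSS, Cad96Ca, which met the filter only through trxRNAi libraries, was higher and Traf4, Src64B, upd2 and ImpL2 were lower. For DSS against sucrose, ImpL2 was higher and Thor lower in control flies, and Traf4, Src64B and ImpL2 were lower in trxRNAi flies. No transcription factor of the stress and wound list passed in limma in any of these, where an unadjusted p under 0.05 was reached by 1 of 7 for genotype under sucrose (pnt, 0.67, adjusted p = 0.112), 1 of 7 for genotype under DSS (foxo, -0.39, adjusted p = 0.162), 0 of 7 for DSS in control and 1 of 7 for DSS in trxRNAi (pnt, -0.80, adjusted p = 0.0702). Over all tested genes that share was 18.3%, 22.4%, 14.4% and 12.6%, so 1 of 7 is about the background. These 2, an ETS factor and the stress factor Foxo, were chosen after their values were seen. List medians lay between -0.23 and 0.20 in these 4 comparisons.

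**Figure D4:**
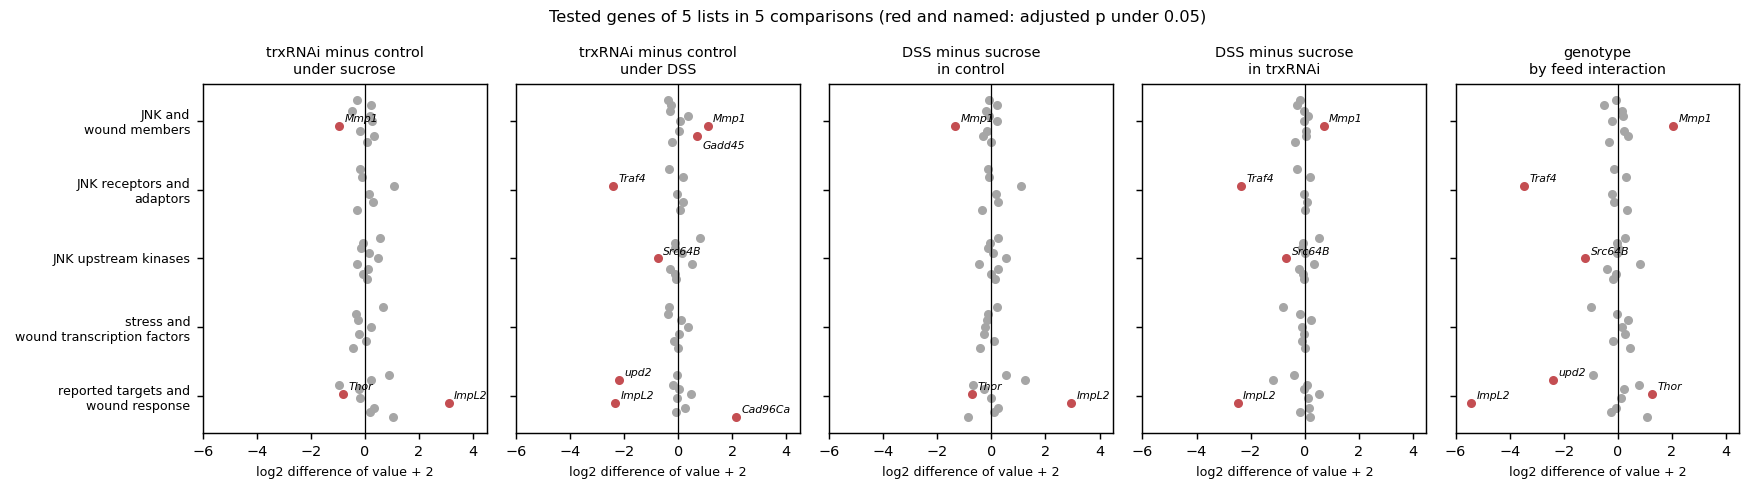
Log2 difference of value plus 2 (x axis) for every tested gene of 5 lists (rows) in 4 comparisons and the interaction (panels). Each point is 1 gene, and red, named points passed at an adjusted p under 0.05. Most points of each list lie near 0, with Traf4 and ImpL2 far to the left for the interaction.

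The adaptor gene Traf4 had 90, 77 and 71 in sucrose-fed controls, 130, 221 and 174 in DSS-fed controls, 212, 155 and 143 in sucrose-fed trxRNAi, and 52, 14 and 39 in DSS-fed trxRNAi. Control DSS and trxRNAi sucrose were high, control sucrose was lower and trxRNAi DSS was lowest, and these 3 levels did not overlap. The difference was -2.40 ± 0.36 with genotype under DSS (5.27-fold lower, adjusted p = 0.000376) and -2.37 ± 0.36 with DSS in trxRNAi (adjusted p = 0.000849), and the interaction was -3.46 ± 0.50 (adjusted p = 0.000272). These 3 calls held without any 1 of the 12 libraries. The Src family kinase gene Src64B had 485, 517 and 530 in sucrose-fed controls, 701, 670 and 869 in DSS-fed controls, 781, 692 and 643 in sucrose-fed trxRNAi, and 411, 473 and 438 in DSS-fed trxRNAi. It fell with genotype under DSS by 0.75 ± 0.16 (adjusted p = 0.00483) and had an interaction of -1.21 ± 0.22 (adjusted p = 0.00163). Its fall with DSS in trxRNAi, -0.67 ± 0.16 (adjusted p = 0.0190), ended without trxRNAi sucrose replicate 1 or 2 or trxRNAi DSS replicate 1 or 3 (adjusted p = 0.125, 0.0678, 0.0779 and 0.0738).

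ImpL2, which encodes a secreted protein that binds insulin-like peptides, had the largest interaction of the lists. Like Traf4 and Src64B, it was high in the groups in which pros, CCHa2, spdo and the mean of mira were high. The means of klu and Sox100B were lower in those groups. The part of these cell type markers in the 3 results was not tested. ImpL2 had 190, 77 and 167 in sucrose-fed controls, 735, 643 and 2469 in DSS-fed controls, 968, 984 and 1676 in sucrose-fed trxRNAi, and 269, 180 and 184 in DSS-fed trxRNAi. It rose 8.55-fold with genotype under sucrose (3.10 ± 0.52, adjusted p = 0.00995) and 7.71-fold with DSS in control (2.95 ± 0.52, adjusted p = 0.0167). The difference was -2.33 ± 0.52 with genotype under DSS (adjusted p = 0.0214) and -2.48 ± 0.52 with DSS in trxRNAi (adjusted p = 0.0303). The interaction was -5.43 ± 0.74 (adjusted p = 0.00141) and held without any 1 library. The fall with DSS in trxRNAi ended without any 1 of the 6 libraries compared (adjusted p from 0.0691 to 0.117), and that with genotype under DSS without trxRNAi DSS replicate 2 or 3 (0.0717 and 0.0726). The rise in control missed the threshold without control sucrose replicate 2 (0.05001) and with only the 6 libraries compared (0.143).

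The gene upd2, for a cytokine of JAK/STAT signalling that JNK is known to induce in stressed gut, had 333, 123 and 97 in sucrose-fed controls, 152, 230 and 178 in sucrose-fed trxRNAi, 483, 388 and 281 in DSS-fed controls and 77, 61 and 114 in DSS-fed trxRNAi. With genotype under DSS it fell by 2.18 ± 0.39 (adjusted p = 0.00370), and the interaction was -2.39 ± 0.56 (adjusted p = 0.0178, or 0.0501 without control sucrose replicate 2). Its relative upd3 did not pass in any comparison. Thor, a translation repressor and target of the stress factor Foxo, had 6012, 5179 and 6203 in sucrose-fed controls, 4480, 2831 and 3399 in DSS-fed controls, 2797, 3892 and 3335 in sucrose-fed trxRNAi, and 4497, 5312 and 4713 in DSS-fed trxRNAi. It fell with genotype under sucrose by 0.80 ± 0.17 (adjusted p = 0.0113, or 0.0771 without trxRNAi sucrose replicate 1) and had an interaction of 1.26 ± 0.24 (adjusted p = 0.00244). Its fall with DSS in control, -0.72 ± 0.17 (adjusted p = 0.0280), ended without control sucrose replicate 1, 2 or 3 or control DSS replicate 2 (adjusted p from 0.0514 to 0.125), after rescaling to equal totals (0.101) and with only the 6 libraries compared (0.104). Cad96Ca, the wound-induced receptor kinase also called stitcher, had 0, 4 and 4 in DSS-fed controls and 11, 18 and 21 in DSS-fed trxRNAi, a rise of 2.13 ± 0.59 (adjusted p = 0.0281). With so low a control group the size depends on the number added before the log, from 1.21 with 8 to 2.55 with 1. The call ended without control DSS replicate 1 or trxRNAi DSS replicate 2 or 3 (adjusted p = 0.131, 0.0963 and 0.117) and with only the 6 libraries compared (0.0558). CG13654 overlaps Cad96Ca on the opposite strand with values of 18 to 61, so its reads remained uncertain. Cad96Ca met the filter only through its trxRNAi libraries, since control values were 2 to 12 under sucrose and 0 to 4 under DSS. Its calls are therefore tied to the groups in which it was high and are given as a description. Averaged over feeds, Cad96Ca (1.58 ± 0.41, adjusted p = 0.0418) also passed, though only in 3 of 12 fits that each left out 1 library, and neither after adding 1 in place of 2 (adjusted p = 0.0518) nor with no filter (0.0507).

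**Figure D5:**
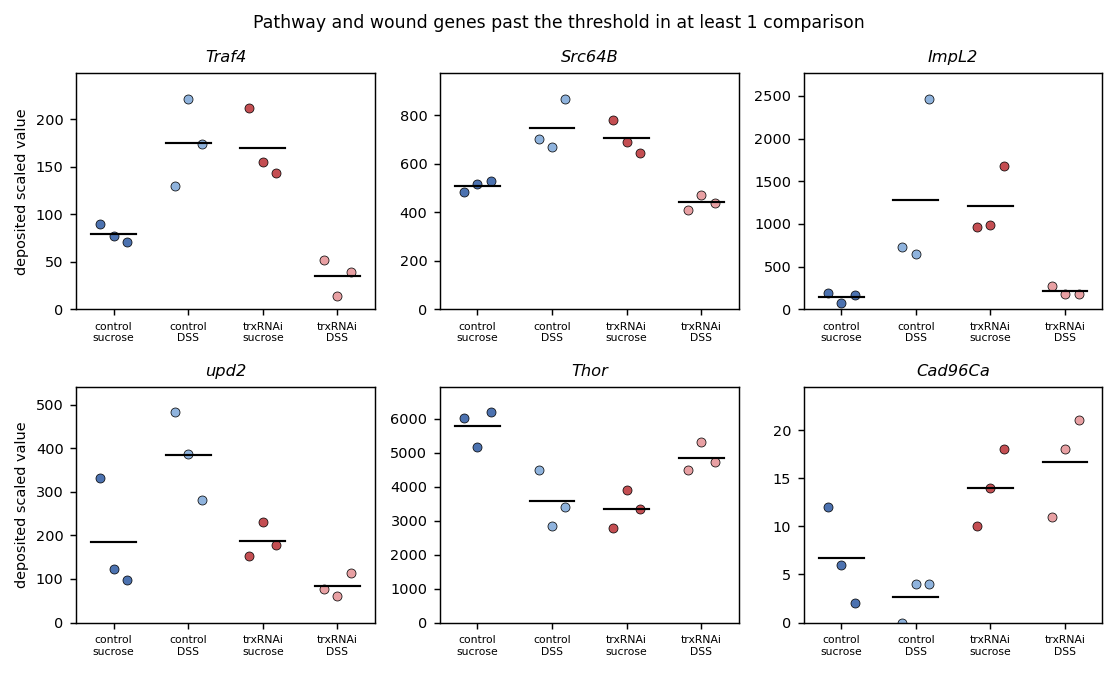
Deposited scaled value (y axis, from 0, own scale per panel) of 6 further pathway and wound genes in each library, by group. Points are the 3 libraries of a group, and bars are their means. Traf4, Src64B and ImpL2 are high in control DSS and trxRNAi sucrose, and Thor is low there.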

How the data were processed

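Each library was made from transcript 3′ ends of sorted progenitors. Each deposited file lists 1 whole number for each of 17617 genes. They were treated as a score, because they look like read counts that the authors multiplied by 1 factor per library and rounded before deposit: in 10 of 12 libraries the pattern of values present and missing picked out 1 factor clearly. The scaling method is not given in the sources used here. Per the submitters' processing notes, tools were Bowtie2, HISAT2, bcl2fastq, DESeq, DESeq2, edgeR and limma, and the build dm6, with no roles. Since the values are no longer counts, no count model was fitted.

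Values plus 2 were put on the log2 scale and fitted with limma 3.58.1 in R 4.3.3, with a mean-variance trend and robust variances, in 1 model of 4 group means over all 12 libraries. The 5 planned contrasts were genotype under each feed, feed in each genotype and their interaction. The genotype contrast averaged over feeds was added after values were seen. The fit was also run on simulated data, drawn independently for each library, and no result here rests on that run. Implied read totals were 4432323 to 7226335, so low values such as those of Mmp2 rest on few reads.

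The members and lists were chosen with earlier results of these data known, and 1 list is not reported here. Named beside the members were list genes past the threshold in a planned contrast, at most 5 per list, and the 3 tested genes most like each member past it in the interaction. Outside that rule, grnd, wgn, Timp, upd3, pnt, foxo and the single cell type markers were named after their values were seen. Positions came from the Ensembl annotation on dm6, and 17520 identifiers matched a symbol. Alternatives were 2 rescalings, pseudocounts of 1 and 8, other filters, fits of only the libraries compared, a replicate block and leaving out each library.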

Additional observations from a re-analysis of the deposited data

Results flagged for a closer look

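The difference between feeds in the genotype effect on Mmp1 was 2.06 on the log2 scale (limma, SE 0.26, adjusted p = 5.42e-05). It was singled out because the interaction test itself passed: Mmp1 was lower in all 3 trxRNAi libraries than in all 3 controls under sucrose and higher in all 3 under DSS. The RNAi target trx was lower in the knockdown libraries under sucrose but overlapped the controls under DSS, and its own genotype effect also differed between feeds, by 0.92 ± 0.27 (adjusted p = 0.0416). The part of this in the Mmp1 result was not tested. The Mmp1 interaction rests on the genotype and feed labels as given, and whether these hold was not tested.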

How the results depend on the processing

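Same-numbered libraries had correlations of deviations from -0.20 to 0.28, with a median of 0.072, over 0.1 in 7 of 18 pairs. Differently numbered libraries had -0.29 to 0.35, with a median of -0.041, over 0.1 in 6 of 36 pairs. These values did not settle whether replicate numbers pair the samples, and the main fit did not pair them. With the replicate number as a block, 1 member (Gadd45) passed the averaged genotype contrast in place of 0, and no other count of members changed. Rescaling to the mean total moved the median of all genes by 0.089, -0.13, 0.14, -0.079 and -0.22 for genotype under sucrose, genotype under DSS, feed in control, feed in trxRNAi and the interaction. Higher against lower calls over all genes then went from 198 and 195 to 278 and 150 under sucrose, from 321 and 472 to 200 and 594 under DSS, from 145 and 114 to 198 and 66 for feed in control, and from 303 and 441 to 166 and 600 for the interaction. Under it 1 member passed for genotype under DSS (Mmp1), 0 for feed in trxRNAi and 1 for the averaged contrast (hep), against 2, 1 and 0. It turned small differences that did not pass: for genotype under DSS Jra went to -0.10 and bsk to -0.082; for feed in control Ets21C went to 0.11, egr to 0.068 and puc to 0.058; for feed in trxRNAi Gadd45 went to -0.014 and Jra to -0.020; and for the interaction egr went to -0.040 and hep to -0.060. With no filter, 0 members passed for feed in trxRNAi and 2 for the interaction (Mmp1 and Mmp2). With only the 6 libraries compared, 105 genes passed for feed in control, against 259. The cause of these changes was not tested.

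Leaving out each library in turn gave 183 to 582 genes for genotype under sucrose, 532 to 930 under DSS, 133 to 247 for feed in control, 167 to 382 for feed in trxRNAi, 534 to 748 for the interaction and 185 to 629 for the averaged contrast. Members that passed numbered 1 to 2, 1 to 2, 1 in every fit, 0 to 1, 1 in every fit and 0 to 2. Some differences that never passed changed sign when 1 library was left out. For genotype under sucrose the ranges were -0.20 to 0.45 for Ets21C and -0.10 to 0.44 for bsk. For genotype under DSS the ranges were -0.11 to 0.30 for Jra, -0.17 to 0.33 for bsk and -0.51 to 0.13 for kay. For DSS against sucrose in control the ranges were -0.25 to 0.36 for Ets21C, -0.16 to 0.38 for bsk, -0.15 to 0.060 for egr, -0.20 to 0.44 for kay and -0.15 to 0.021 for puc. For DSS against sucrose in trxRNAi the ranges were -0.13 to 0.30 for Gadd45, -0.079 to 0.33 for Jra, -0.23 to 0.27 for bsk, -0.087 to 0.23 for egr and -0.057 to 0.016 for hep. For the interaction the ranges were -0.43 to 0.14 for bsk, -0.015 to 0.31 for egr and -0.17 to 0.054 for puc. For genotype averaged over feeds the ranges were -0.22 to 0.10 for Ets21C, -0.16 to 0.048 for Jra, -0.031 to 0.12 for Mmp1, -0.024 to 0.29 for bsk and -0.14 to 0.18 for kay. Depth limits Mmp2 and Cad96Ca, whose values were at most 16 and 21.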
